A study of Homo sapiens with 6 samples.

Results

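Marker genes of the hepatic progenitor, of the bile duct and of liver cancer stem cells were followed in Hep3B cells with and without a knockout of RFX6. The 10 genes were taken by name, by a rule that uses no measured value, although the list was drawn up with earlier results of these data known: EPCAM, KRT7, KRT19, PROM1, CD24, CD44, SOX4, SOX9, SPP1 and ANPEP. Of the 16720 gene names in the table of counts, 9 belong to this list, and 8 of these 9 were among the 12839 genes that passed the filter on low counts. PROM1 had too few counts for the filter, and CD24 was not analysed here, since no row carries its symbol.

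Hep3B is an established human cell line from a hepatocellular carcinoma. The control group (sgControl, 3 libraries) carried a control guide and is labelled as wild type. The knockout group (sgRFX6, 3 libraries) carried a guide against RFX6, a transcription factor of the regulatory factor X family, and is labelled RFX6 knockout. Per the study's methods, Cas9 and guide were delivered by lentivirus, infected cells were selected with puromycin, and clones grown from single cells were expanded, and the number of clones behind the libraries is not given in the sources used here, so that knockout and clone cannot be told apart. The count columns of the knockout name the guide sg3, and those of the control name only Cas9. The methods ask in general for independent repeats of experiments, but neither they nor the labels say whether these libraries came from separate cultures, so that p-values measure the spread between these libraries, which may be technical.

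During development, hepatoblasts give rise both to hepatocytes and to the cholangiocytes that line the bile ducts. KRT7, KRT19, SOX9, SPP1 and EPCAM are markers of the bile duct and of progenitor cells, and hepatocytes of the adult liver hold little of them. CD24, CD44, PROM1 (CD133), EPCAM and ANPEP (CD13) are surface proteins by which cells with stem cell properties have been sorted from liver tumours. SOX4 and SOX9 are transcription factors that act together in bile duct formation.

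The libraries held between 16730374 and 25070770 counts. RFX6 itself was at 5.64, 5.83 and 7.34 CPM (a gene's counts relative to the size of its library, scaled with TMM factors) in sgControl and at 3.43, 3.71 and 3.50 CPM in sgRFX6. Its log2 fold change was -0.82 ± 0.26 (SE, edgeR adjusted p = 0.142), so the transcript of the targeted gene did not pass the threshold, although all sgRFX6 libraries were lower. It passed with limma-voom and sample quality weights (-0.96) and with the GC trend removed (-0.85). The paper reports a check of its RFX6 knockout cells by western blotting and real-time PCR, and the counts used here do not measure protein. Deviations of single libraries from their group mean tracked transcript GC content, with Spearman correlations across genes from -0.86 for sgRFX6 library 3 to 0.73 for sgRFX6 library 2, and 0.41 for sgControl library 2. Libraries of a group differed with chi-square values of 16.2 to 117 for each degree of freedom, so none was a second copy of another, which does not tell separate cultures from separate preparations.

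The label of a hepatocellular line was compared with 28 hepatocyte genes. The transcription factor HNF4A was at 146 to 161 CPM in sgControl. In the same libraries some secreted liver proteins were well counted, with APOH at 65.6 to 89.9, APOB at 60.5 to 76.4 and AMBP at 31.2 to 43.8 CPM. Albumin (ALB), at 12.9 to 32.1 CPM, and SERPINA1, at 8.19 to 10.8 CPM, lay well below HNF4A. Others were low, with FGG at 1.81 to 7.33, TTR at 0.259 to 0.850 and APOA1 at 0.819 to 1.30 CPM. The fetal liver protein AFP, which Hep3B cells are known to secrete, was at 1.58 to 2.31 CPM, and GPC3, a surface proteoglycan of hepatocellular carcinoma, was at 0.337 to 0.688 CPM. A gene with 3 counts was at 0.121 to 0.188 CPM, depending on the library. The hepatocyte genes were thus mixed, with AFP and GPC3 low for the labelled line, while the intestinal keratin KRT20 was at 198 to 302 CPM in sgControl. The marker EPCAM was low as well, at 0.388 to 1.16 CPM in sgControl. Whether the cells are the labelled line was not tested.

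No marker gene was called between sgRFX6 and sgControl. In bulk RNA, fewer cells that express a gene and less of its RNA per cell cannot be told apart. None of the 8 tested passed the threshold of 0.05 after adjustment (quasi-likelihood test, edgeR), which 3.74% of all tested genes passed. In simulated counts, the same test called 19% of the genes changed 2-fold and 86% of those changed 4-fold. A marker that was not called is thus not shown to be unchanged. Of the 8, KRT7, SOX4 and ANPEP had an unadjusted p-value under 0.05, against 15.6% of all tested genes. KRT7 and SOX4, that is 2 of the 8, had every sgRFX6 library on the same side of every sgControl library, against 23.1% of all tested genes. The log2 fold change was positive for 4 and negative for 4 of the markers, with a median of -0.07 against 0.02 over all tested genes. The share of markers without overlap was near that of all genes.
With other methods, some markers passed. DESeq2 called 1 of the markers, KRT7, where it called 6.44% of the genes with an adjusted p-value. With the GC trend of each library removed, edgeR called KRT7 and ANPEP, where it called 12.0% of genes. Limma-voom with sample quality weights called KRT7, SOX4, SPP1 and ANPEP, where it called 31.1% of genes. With each library left out in turn, edgeR called none of the 8.

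**Figure D1:**
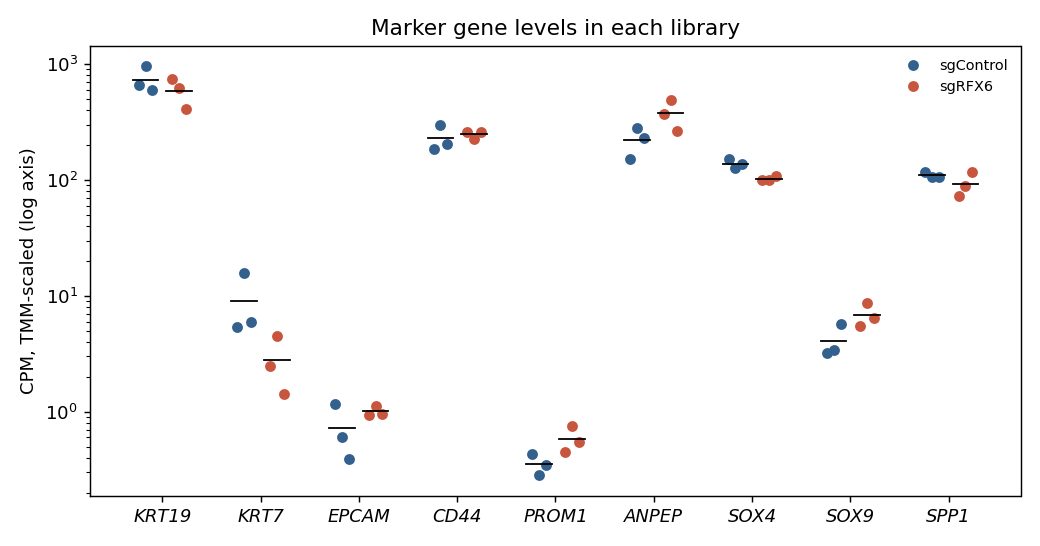
Level of each of the 9 measured marker genes in every library, in TMM-scaled CPM on a log axis, with sgControl in blue, sgRFX6 in red and a bar at the mean of 3 libraries. KRT7 and SOX4 are lower in all sgRFX6 libraries, KRT7 with 1 sgControl library at 15.8 CPM far above the others, while EPCAM and PROM1 stay near or below 1 CPM.

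The levels of the markers were compared with each other after division by the exon length of each gene in GENCODE release 29. This length joins the exons of all annotated transcripts of a gene and can exceed that of the transcript expressed. The order of close neighbours thus depends on the annotation too. On this scale of CPM per kilobase, KRT19 was the most abundant in sgControl, at 315 ± 82.6 (SD, n = 3). SPP1 followed at 47.4 ± 2.65 and ANPEP at 45.4 ± 13, and the ranges of these neighbours overlapped. SOX4 and CD44 formed the next pair, at 23.6 ± 2.26 and 22.9 ± 6.26, also with overlapping ranges. KRT7 at 2.21 ± 1.43 and SOX9 at 1.04 ± 0.350 overlapped as well. EPCAM at 0.285 ± 0.157 and PROM1 at 0.0476 ± 0.0101 CPM per kilobase were lowest, and their ranges did not overlap with each other or with SOX9. In sgControl a keratin thus stood far above the other markers, and the surface proteins EPCAM and PROM1 were lowest.
In sgRFX6 the order differed in 3 places. ANPEP, at 77.4 ± 23.3 CPM per kilobase, stood above SPP1, at 40.0 ± 9.56, and their ranges no longer overlapped. CD44, at 24.8 ± 1.92, stood above SOX4, at 17.6 ± 0.905, likewise without overlap. SOX9, at 1.73 ± 0.410, stood above KRT7, at 0.685 ± 0.387, without overlap. KRT7 now overlapped with EPCAM, since its lowest sgRFX6 library was at 0.344 and the highest of EPCAM at 0.449 CPM per kilobase. These orders describe the levels within each group, and the exchange of places was not tested.

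**Figure D2:**
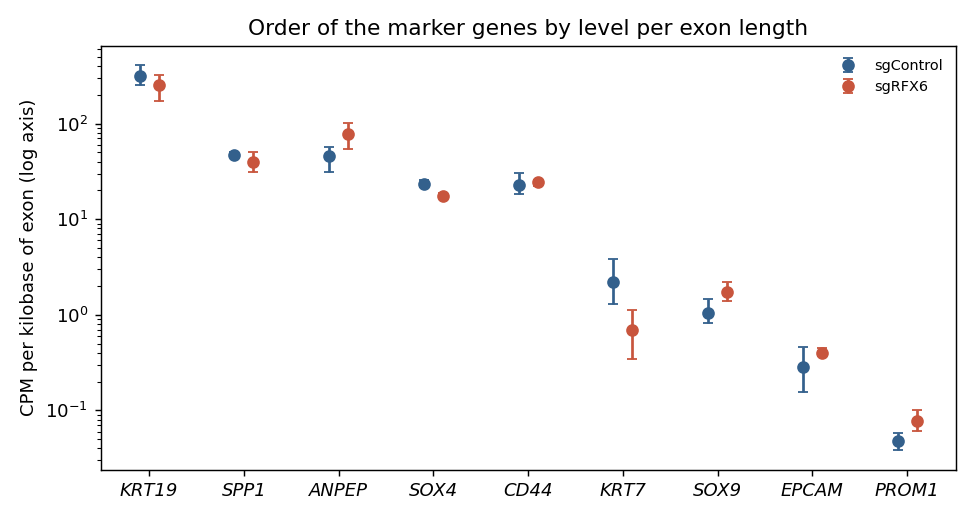
Mean level of each marker gene per kilobase of exon (log axis) in sgControl (blue) and sgRFX6 (red), with bars from the lowest to the highest of 3 libraries. KRT19 leads at 315 and 253 CPM per kilobase, and ANPEP and SPP1, CD44 and SOX4, and SOX9 and KRT7 exchange places between the groups.

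The keratins of the bile duct were measured at very different levels. KRT19 encodes the small type I keratin of simple ducts and lies on chromosome 17 of GRCh38 from 41523617 to 41528308. It was at 658, 956 and 594 CPM in sgControl libraries 1 to 3, against 749, 619 and 407 CPM in sgRFX6 libraries 1 to 3. The groups overlapped, with the highest library in sgControl and the lowest in sgRFX6. The log2 fold change of KRT19 was -0.31 ± 0.27 (SE, edgeR adjusted p = 0.671), and it was 0.17 with limma-voom and sample quality weights, with the opposite sign.
KRT7, a type II keratin of ducts, lies on chromosome 12 from 52232520 to 52252186. It was counted 111, 390 and 138 times in sgControl and 50, 72 and 31 times in sgRFX6, which is 5.35, 15.8 and 5.95 CPM against 2.48, 4.52 and 1.41 CPM. No knockout library reached the lowest control library. A two-sided exact test by permutation gave p = 0.1, its lower limit for 3 against 3 libraries, and sgControl library 2 stood far above the others of its group. KRT7 had a log2 fold change of -1.70 ± 0.54 (SE, edgeR adjusted p = 0.149), the largest difference among the markers. Without sgControl library 2 it was -1.03 (adjusted p = 0.356 from edgeR), and without sgRFX6 library 2 it was -2.22 (adjusted p = 0.106 from edgeR). With the GC trend removed, the levels of KRT7 were 5.87, 14.2 and 6.02 CPM in sgControl and 2.29, 3.78 and 1.79 CPM in sgRFX6 (adjusted p = 0.0398 from edgeR). DESeq2 gave an adjusted p-value of 0.0190 and limma-voom with sample quality weights 0.00928. An antisense gene, KRT7-AS, shares 282 exonic bases with KRT7, and the strand setting of the counting is not given in the sources used here, so reads in this shared part, out of 4093 exonic bases of KRT7, cannot be assigned to either gene.

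Of the surface proteins, EPCAM and PROM1 were near the floor. EPCAM, an adhesion molecule of epithelial and progenitor cells (chromosome 2, 47345158 to 47387601), was counted 24, 15 and 9 times in sgControl and 19, 18 and 21 times in sgRFX6. This is 1.16, 0.607 and 0.388 CPM against 0.943, 1.13 and 0.953 CPM, with overlapping groups and a log2 fold change of 0.50 ± 0.46 (SE, edgeR adjusted p = 0.700). The exact (Clopper-Pearson) 95% binomial interval of the lowest EPCAM library ran from 0.178 to 0.740 CPM of the library total and that of the highest from 0.757 to 1.76 CPM, so counting error alone was wide. PROM1, a protein of membrane protrusions (chromosome 4, 15963076 to 16084378), was counted 9, 7 and 8 times in sgControl and 9, 12 and 12 times in sgRFX6. PROM1 was at 0.433, 0.283 and 0.345 CPM against 0.447, 0.754 and 0.545 CPM. Every sgRFX6 library thus lay above every sgControl library (exact permutation, two-sided, p = 0.1, the lower limit). Relative to library totals alone, sgRFX6 library 1 was at 0.432 and sgControl library 1 at 0.443 CPM, so the groups overlapped. A difference between the groups could not be resolved at this depth. An overlapping gene on the same strand, FGFBP2, shares 166 exonic bases with PROM1. The intervals cover counting error only.
CD44, the receptor of hyaluronan and of osteopontin, lies on chromosome 11 from 35138870 to 35232402. It was at 184, 301 and 203 CPM in sgControl and at 258, 225 and 260 CPM in sgRFX6. The sgRFX6 libraries all lay between the lowest and the highest sgControl library. The log2 fold change of CD44 was 0.11 ± 0.21 (SE, edgeR adjusted p = 0.885). The 50 tested genes nearest to CD44 had a median log2 fold change of 0.40, and with this regional median removed CD44 was at -0.26 (adjusted p = 0.769 from edgeR). Counts per gene do not separate the standard form of CD44 from its splice variants, and an antisense gene, CD44-AS1, shares 84 exonic bases with it.

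ANPEP encodes aminopeptidase N, an enzyme of the cell surface (chromosome 15, 89784889 to 89815401, reverse strand). It was counted 3177, 6887 and 5352 times in sgControl and 7529, 7840 and 5841 times in sgRFX6, which is 153, 279 and 231 CPM against 374, 492 and 265 CPM. A single overlap remained, since sgRFX6 library 3 lay just below sgControl library 2. ANPEP had a log2 fold change of 0.77 ± 0.28 (SE, edgeR adjusted p = 0.215), the largest positive difference among the markers. With the GC trend removed, ANPEP was at 165, 254 and 230 CPM in sgControl and at 352, 427 and 323 CPM in sgRFX6, without overlap (log2 fold change 0.79, adjusted p = 0.0284 from edgeR). When libraries were scaled by their size only, the groups did not overlap either. With limma-voom and sample quality weights it was 0.90 (adjusted p = 0.00191). With 1 library left out, the log2 fold change lay between 0.53 (without sgRFX6 library 2) and 0.98 (without sgRFX6 library 3), and adjusted p-values from edgeR lay between 0.0730 and 0.476.

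Of the transcription factors, SOX4 and SOX9 had differences of opposite sign. SOX4 (chromosome 6, 21592768 to 21598619) was counted 3157, 3107 and 3168 times in sgControl and 2007, 1591 and 2400 times in sgRFX6. It was at 152, 126 and 137 CPM against 99.6, 99.9 and 109 CPM, and every knockout library lay under every control library (exact permutation, two-sided, p = 0.1, again the lower limit). The mean level of SOX4 was 138 ± 13.2 CPM in the control and 103 ± 5.30 CPM in the knockout (SD, 3 libraries each), a difference larger than either spread. The log2 fold change was -0.43 ± 0.16 (SE, edgeR adjusted p = 0.213). It kept its sign in all 15 alternatives, and it was -0.48 with limma-voom and sample quality weights (adjusted p = 0.00296). The antisense gene AL512380.2 shares 168 exonic bases with SOX4.
SOX9, the factor that marks ducts from their first stages (chromosome 17, 72121020 to 72126420), was at 3.23, 3.40 and 5.70 CPM in sgControl and at 5.46, 8.61 and 6.40 CPM in sgRFX6. The groups overlapped in a single pair, sgControl library 3 and sgRFX6 library 1. Its log2 fold change was 0.73 ± 0.32 (SE, edgeR adjusted p = 0.327), and with 1 library left out it lay between 0.53 (without sgRFX6 library 2) and 1.07 (without sgControl library 3).

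The secreted marker SPP1, osteopontin (chromosome 4, 87975650 to 87983426), was at 117, 107 and 106 CPM in sgControl and at 72.6, 89.5 and 117 CPM in sgRFX6. The sgControl libraries lay close together at 110 ± 6.15 CPM (SD, n = 3), while the sgRFX6 libraries ranged from below all of them to their upper end. The log2 fold change of SPP1 was -0.24 ± 0.20 (SE, edgeR adjusted p = 0.647). With limma-voom and sample quality weights it was -0.50 (adjusted p = 0.00757). Without sgRFX6 library 3 edgeR gave -0.43 (adjusted p = 0.138), and without sgRFX6 library 1 it gave -0.09 (adjusted p = 0.924).

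**Figure D3:**
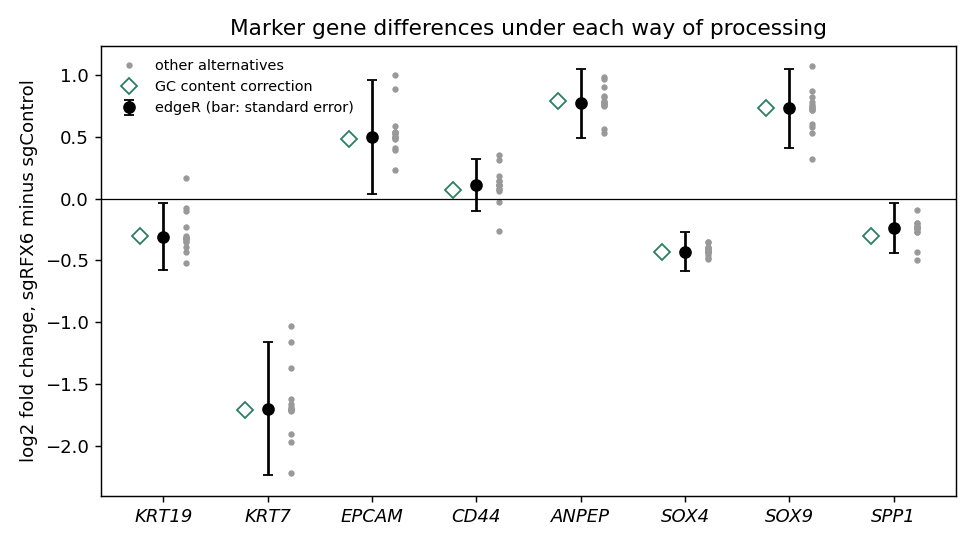
Log2 fold change of sgRFX6 against sgControl for the 8 tested markers from edgeR (black, with its standard error), after the GC content correction (green) and under the other 14 alternatives (grey). KRT7 lies between -2.22 and -1.03 throughout and SOX4 within a narrow band around -0.43, whereas CD44 and KRT19 change sign under single alternatives.

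Besides the listed markers, 22 further genes of the bile duct were examined. Of these, 15 were tested, 4 rose and none fell, against 1.92% of all tested genes called higher and 1.81% called lower. Their median log2 fold change was 0.74, and 14 of the 15 had a positive value. This list, like those that follow, was chosen with earlier results of these data known, so its counts are a description and not independent evidence of a direction. MMP7, a matrix protease of ductal epithelium, rose from 14.9 ± 4.2 to 101 ± 17.9 CPM (SD, n = 3 each), with a log2 fold change of 2.76 (edgeR adjusted p = 0.00123). The RNA-binding protein BICC1 rose from 1.12 ± 0.115 to 7.10 ± 3.03 CPM (log2 fold change 2.66, adjusted p = 0.00626 from edgeR). CLDN4, a tight junction protein, rose from 200 ± 26.3 to 377 ± 76.8 CPM (0.91, adjusted p = 0.0439 from edgeR).
MMP7 and BICC1 were called with any single library left out. CLDN4 was called only without sgRFX6 library 3, and its adjusted p-value from edgeR was 0.160, 0.0655, 0.151, 0.188 and 0.123 without sgControl library 1, 2 or 3 or sgRFX6 library 1 or 2. CLDN4 and MMP7 lie on chromosomes 7 and 11, where the median of the log2 fold change over the nearest 50 tested genes was 0.36 and 0.49, and CLDN4 was not called with this median removed (adjusted p = 0.201 from edgeR). Of the genes not called, GGT1, an enzyme of the duct membrane, and SLC4A2, an anion exchanger, had log2 fold changes of 0.13 and 0.35, and ANXA4, a membrane-binding annexin, had 0.36.

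Among 21 other progenitor and stem cell genes, 15 were tested, 2 rose and 2 fell, where 1.92% of all tested genes rose and 1.81% fell. AFP rose from 2.03 ± 0.395 to 14.4 ± 3.86 CPM (log2 fold change 2.82, adjusted p = 0.00254 from edgeR). LGR5, a receptor that marks stem cells of several epithelia, fell from 26.3 ± 6.45 to 4.62 ± 1.34 CPM (-2.51, adjusted p = 0.00340 from edgeR). Both were called with any single library left out. The drug efflux pump ABCG2 rose from 43.6 ± 7.38 to 102 ± 30.2 CPM (1.22, adjusted p = 0.0283 from edgeR). The fetal zinc finger factor SALL4 was counted 15, 41 and 16 times in sgControl and 2, 2 and 5 times in sgRFX6 (log2 fold change -2.70, edgeR adjusted p = 0.0407).
ABCG2 was called without sgRFX6 library 2 or 3, and had edgeR adjusted p-values of 0.0544, 0.0952, 0.112 and 0.0711 without sgControl library 1, 2 or 3 or sgRFX6 library 1, and of 0.0546 with scaling by library size only. SALL4 was called in none of these 6 fits, with edgeR adjusted p-values of 0.0557, 0.0870 and 0.0806 on leaving out sgControl library 1, 2 or 3 and of 0.168, 0.128 and 0.0550 on leaving out sgRFX6 library 1, 2 or 3. The most abundant gene of this list, the aldehyde dehydrogenase ALDH1A1, had a log2 fold change of -0.08, and ITGA6 and ICAM1 had 0.30 and -0.10. AFP, ABCG2, LGR5 and SALL4 are thus a set with changes in both directions.

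The nearest relatives of the markers gave a single call, a higher level in sgRFX6, where 1.92% of all tested genes were called higher. Of 18 relatives, 10 were tested, and KRT20, an intestinal keratin, rose from 248 ± 52.0 to 792 ± 130 CPM (log2 fold change 1.67, adjusted p = 0.00430 from edgeR). The keratins KRT8 and KRT18, which pair in simple epithelia, had log2 fold changes of 0.00 and -0.07. SOX12, which belongs to the same group as SOX4, had -0.22.
Of 28 partners of CD44, SPP1 and EPCAM, 19 were tested. None was called by edgeR, where 3.74% of all tested genes were called. An unadjusted p-value under 0.05 was found for 3, a share close to the 15.6% of all tested genes. These were MMP14, a membrane protease that cleaves CD44, at -1.43 on the log2 scale (edgeR adjusted p = 0.0692, called in 6 of 15 alternatives), and ITGA5 and CLDN7, with -0.66 and 1.67. The integrin chains ITGB1 and ITGAV, which bind osteopontin, had log2 fold changes of -0.25 and 0.07. The linker proteins EZR and MSN, which join CD44 to the cytoskeleton, had 0.16 and -0.34. The integrin chain ITGB3 was at or below 0.136 CPM in every library.
The Notch and YAP pathways, which act in the choice of the duct fate, had 25 listed genes and 23 tested. Of these, 1 rose and 1 fell, against 1.92% and 1.81% of all tested genes. NOTCH1 rose from 102 ± 13.1 to 215 ± 41.4 CPM (log2 fold change 1.09, adjusted p = 0.0194 from edgeR), and ANKRD1, a target of YAP, fell from 20.6 ± 5.12 to 3.34 ± 0.477 CPM (-2.62, adjusted p = 0.00201 from edgeR). ANKRD1 was called with any single library left out. NOTCH1 was called without sgControl library 3 or sgRFX6 library 3, and had edgeR adjusted p-values of 0.0713, 0.0688, 0.0929 and 0.0636 without sgControl library 1 or 2 or sgRFX6 library 1 or 2. The ligand JAG1 and the receptor NOTCH2, both needed for ducts, had -0.48 and -0.13, and YAP1 had 0.22. CYR61, CTGF and AMOTL2, which are also targets of YAP, had log2 fold changes of -0.46, -0.07 and 0.31. The Notch targets HES1, HEY1 and NRARP had 0.17, -0.42 and 0.33, and none of these targets was called by edgeR. HEY2 and HEYL had too few counts for the filter. HEY2 was counted 0, 4 and 2 times in sgControl and 10, 10 and 9 times in sgRFX6.

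**Figure D4:**
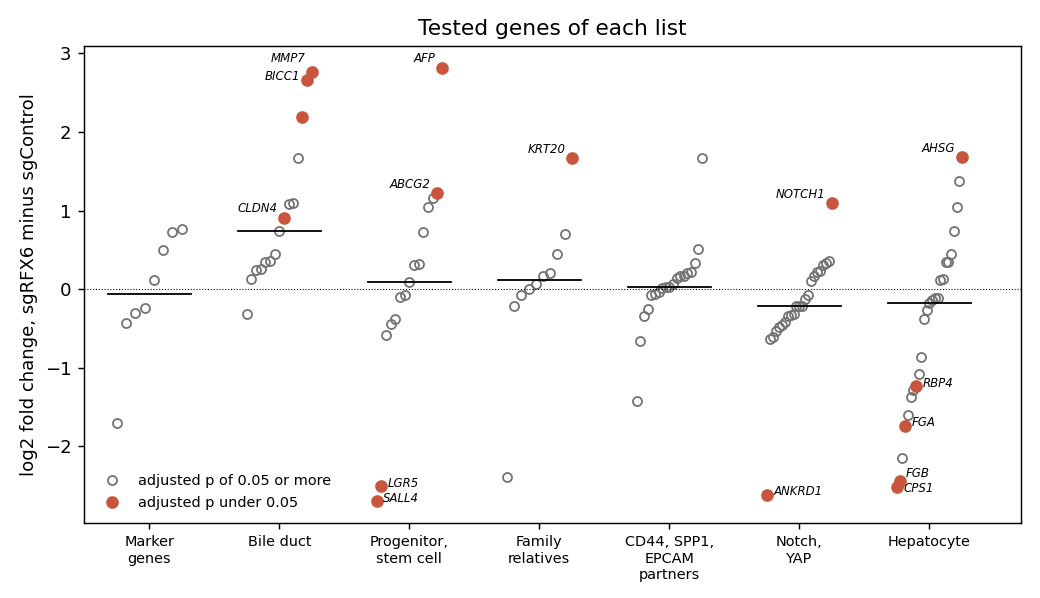
Log2 fold change of every tested gene in the marker list and in 6 lists of related genes, with genes at an adjusted p-value under 0.05 (edgeR) filled and most of them named, and a bar at each list's median. The bile duct list has its median at 0.74 with 4 filled points above 0, while the markers and the other lists have medians between -0.21 and 0.11.

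Of the 28 hepatocyte genes, 25 were tested, 1 rose and 4 fell, against the same 1.92% and 1.81% of all tested genes. FGB and FGA, chains of fibrinogen, fell by 2.45 and 1.74 on the log2 scale, RBP4, the retinol carrier, by 1.24, and CPS1, of the urea cycle, by 2.52. AHSG, fetuin, rose by 1.68. Of these 5, FGA and FGB were called with any single library left out, RBP4 and CPS1 in 2 and AHSG in 3 of these 6 fits, and the highest adjusted p-values from edgeR were 0.126 for RBP4 (without sgControl library 3), 0.105 for CPS1 (without sgRFX6 library 1) and 0.0705 for AHSG (without sgControl library 3).
Most markers of other cell types were low, apart from CD68, LUM at 16.7 to 54.7 CPM and PECAM1 at 11.4 to 19.3 CPM over all libraries. The 6 leukocyte markers summed to between 73.9 and 160 CPM in sgControl and between 65.1 and 103 CPM in sgRFX6, of which CD68, which is not restricted to leukocytes, made up nearly all, while PTPRC was at or below 0.999 CPM and CD3E at or below 0.0454 CPM. The monocyte genes LYZ and CD14 had log2 fold changes of 1.99 and -0.79 and were not called. Of the 5 endothelial markers only PECAM1 was tested, which was not called, KDR was at or below 0.0628 CPM, and together they summed to between 11.8 and 19.7 CPM over all libraries. The 6 fibroblast and stellate cell markers summed to between 24.9 and 33.1 CPM in sgControl and between 21.3 and 56.4 CPM in sgRFX6, most of it LUM, while PDGFRB was at or below 0.607 CPM and ACTA2 at or below 0.345 CPM. Of these 6, 4 were tested, and 2, COL1A1 and COL1A2, were called lower, against 1.81% of all tested genes. COL1A1 and COL1A2 fell by 2.08 and 3.71 on the log2 scale, from means of 5.16 and 1.87 CPM. COL1A1 had edgeR adjusted p-values of 0.0558 and 0.0650 without sgControl library 3 or sgRFX6 library 1. The part of other cell types in the results above was not tested.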

How the data were processed

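RNA-seq libraries of Hep3B cells (3 sgControl, 3 sgRFX6) were analysed. After Trizol extraction and Illumina sequencing, the authors deposited raw read counts per gene, without normalisation, for 16721 rows and 6 libraries. The submitters' processing notes name the genome builds GRCh38 and hg38, while aligner, counting program and annotation are not given in the sources used here. Columns were assigned by name and replicate number, the Cas9 columns as sgControl, the only control group. A row without a gene name (at most 9.17e-05% of a library) was left out.

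Genes were filtered with filterByExpr, scaled with TMM and compared with the quasi-likelihood test of edgeR 4.0.16 (R 4.3.3) over 6 libraries without covariates, with Benjamini-Hochberg adjustment over 12839 genes and a threshold of 0.05. Standard errors came from the fold change and the F statistic. CPM values were also compared by an exact permutation test. The script was tested on simulated data, where it called 19% of the genes changed 2-fold and 86% of those changed 4-fold. Of the calls in these simulated data, 9.48% were false. GENCODE release 29 (GRCh38) gave gene positions, exon lengths and GC content, with 15422 rows matched by name and 257 by an older name.

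All 10 markers were described. From each further list, the called genes were named, or the 3 most abundant tested genes where none was called. Among the called genes, 1 that is counted is not reported here by name. Other genes were named after their values were seen. Upstream sequences were to be printed for called markers, so none is printed. The markers and lists were chosen with earlier results of these data known. The comparison was repeated with RLE factors, with scaling by library size only, with DESeq2 1.42.0, with limma-voom 3.58.1 and sample quality weights, with 2 other filters, a replicate block and each library left out, and with corrections for GC content (loess span 0.3) and for the median of the nearest 50 genes.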

Additional observations from a re-analysis of the deposited data

How the results depend on the processing

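Over 15 alternatives, EPCAM, KRT7, SOX4, SOX9, SPP1 and ANPEP kept their direction. CD44 changed sign without sgControl library 1 (leaving out libraries gave -0.03 to 0.35) and with the regional correction (-0.26), and KRT19 with limma-voom (0.17). KRT7 passed the threshold with DESeq2 (-1.71), limma-voom (-1.16) and the GC correction (-1.71), ANPEP with limma-voom (0.90) and the GC correction (0.79), and SOX4 and SPP1 with limma-voom (-0.48 and -0.50). The number of markers called, 0 in edgeR, was thus 1 with DESeq2, 4 with limma-voom and 2 with the GC correction. It was 0 with each library left out, where the number of all genes called lay between 212 and 718 and that of the other lists' genes between 10 (without sgRFX6 library 1) and 21 (without sgRFX6 library 3). All genes called numbered 480 in edgeR, 908 with DESeq2, 3998 with limma-voom and 1467 with the GC correction, and those of the other lists 18, 60 with limma-voom and 30 with the GC correction. With library size only, 3 tested markers did not overlap, in place of 2. Why these settings differ was not tested.

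Libraries with the same replicate number did not deviate together: the correlations across genes were -0.41, 0.17 and -0.09 for numbers 1, 2 and 3, and not every library correlated best with its own number. With the number as a replicate block, 648 genes and 1 marker were called, KRT7 (log2 fold change -1.66, adjusted p = 0.00514 from edgeR). RFX6 and the other markers stayed uncalled, and the other lists' genes called without the block stayed called. Of the other lists' genes, 24 were called with the block, in place of 18. Low counts, 7 to 12 for PROM1 and 9 to 24 for EPCAM, limited the precision of both, and for EPCAM the spread within sgControl also exceeded the counting intervals of 2 libraries.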
